A study of Saccharomyces cerevisiae with 6 samples.

Results

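The retrograde pathway of budding yeast, Saccharomyces cerevisiae, was followed through 7 genes: the regulators RTG1, RTG2, RTG3 and MKS1 and the target genes CIT2, DLD3 and PYC1. They were chosen by name from the platform annotation, which gave 1 probe set for each, so that they made up 7 of the 5449 genes measured by 5498 probe sets. The arrays came from 3 samples of a VPS4 knock out strain, named Delta VPS4 in the labels, and 3 of a wild type strain. Both strains were grown to mid-log phase at 26 °C in YNB, a synthetic medium to which required amino acids were added. The VPS4 gene encodes the ATPase that disassembles ESCRT-III on endosomes, and the title of the series names ESCRT mutants and the recycling of amino acids. The labels name no other allele and no strain background, and do not say whether the replicates were separate cultures, so the p-values rest on a spread between arrays that may be technical only.

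The retrograde pathway carries a signal from mitochondria to the nucleus. The activators Rtg1 and Rtg3 act as a pair on target genes whose products supply citrate, oxaloacetate and 2-oxoglutarate, the carbon skeletons from which glutamate is made. Mks1 holds this pair in the cytoplasm, Rtg2 binds Mks1 and releases them, and a good supply of glutamate or glutamine keeps the targets low.

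Expression was measured on Affymetrix arrays as log2 GCRMA values, on which 1 unit is a doubling. Differences are VPS4 deletion minus wild type, and a gene was called when its limma p-value, adjusted by Benjamini-Hochberg over all 5498 probe sets, was under 0.05. VPS4 itself was below background on all 3 deletion arrays, at 1.75, 1.42 and 1.29, against 11.46, 11.48 and 11.39 on the wild type arrays, which is at least 760-fold lower (limma adjusted p = 1.30e-07). All 7 retrograde genes lay above background on all 6 arrays. Wild type replicate 3 stood apart from the rest: across probe sets its Pearson r with either other wild type array was 0.993, against 0.999 between replicates 4 and 6. The counts of calls for the retrograde genes and for the lists of related genes, and the values that move most, are therefore also given without that array. With all arrays 235 probe sets were called, and without replicate 3 the number was 1212.

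None of the 7 retrograde genes was called between the genotypes (limma, adjusted p from 0.370 for MKS1 to 0.984 for RTG3). At an unadjusted p under 0.05 the count was also 0, against 17.4% of all tested probe sets. After adjustment 4.27% of all probe sets were called, so with 7 genes a count of 0 does not set the pathway apart. The differences ran from −0.06 for RTG1 to 0.19 for CIT2, with a median of 0.0044, beside a median of −0.0019 over all probe sets. Without wild type replicate 3 the median of the 7 was 0.10, against −0.0036 over all probe sets. In 0 of the 7 genes did the genotypes separate without overlap, whereas they did so in 24.8% of all probe sets. Without wild type replicate 3, CIT2 and DLD3 were called higher in the deletion, 2 of 7 genes, where 22.0% of all probe sets were called, 11.9% as higher and 10.1% as lower.

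**Figure D1:**
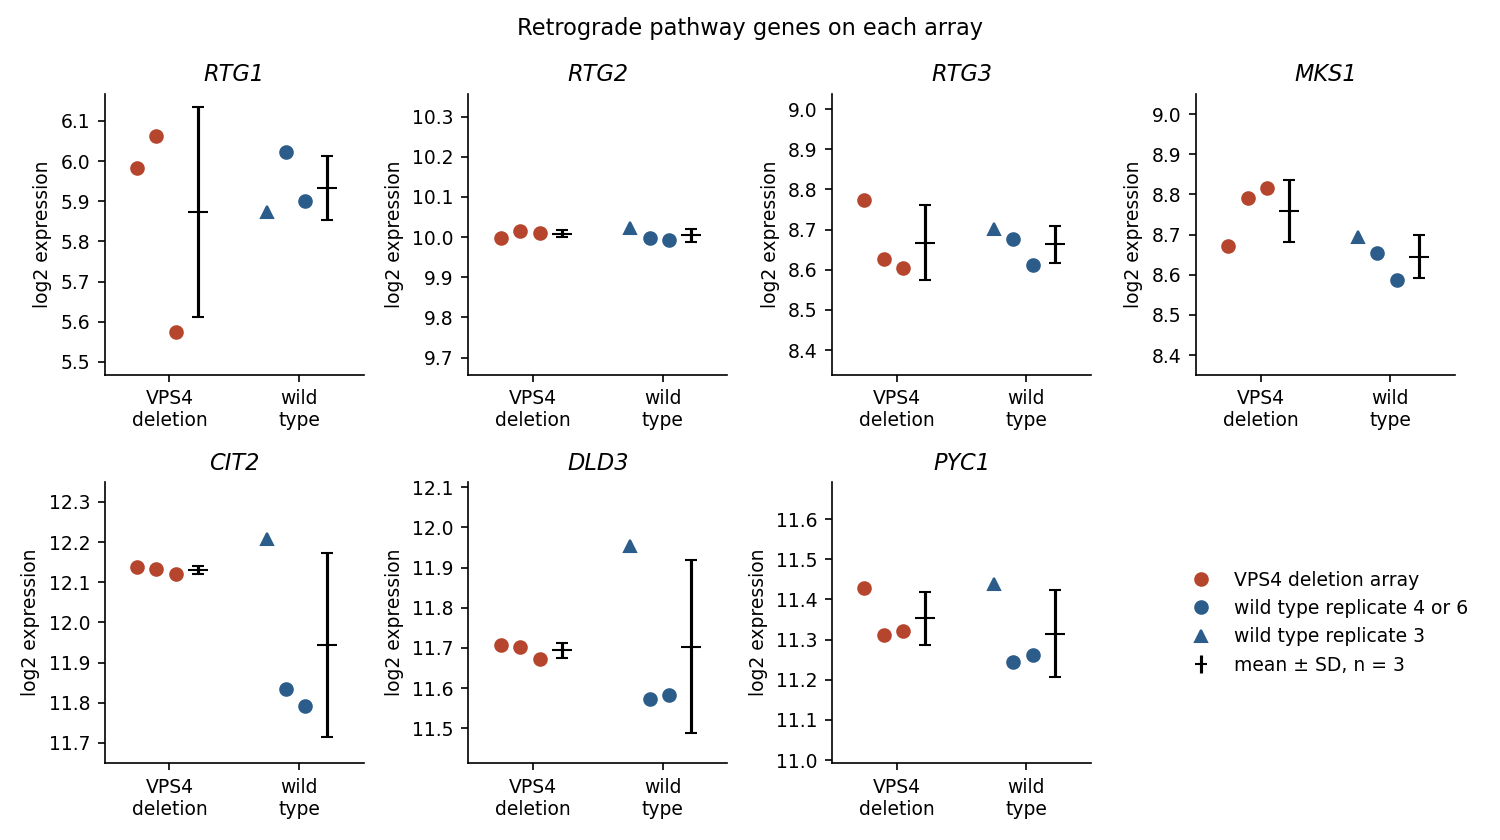
Log2 expression of the 7 retrograde genes on each array, VPS4 deletion on the left and wild type on the right of each panel, with group mean and SD (n = 3); each panel spans the same log2 range around its own centre. In CIT2, DLD3 and PYC1 the triangle, wild type replicate 3, lies above every other array, and in RTG1 the low point is deletion replicate 6. The triangle is also highest in RTG2, where all arrays lie within a few hundredths of a log2 unit.

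Among the regulators, RTG2 was the most even. This gene encodes the cytoplasmic sensor that relieves the block by Mks1. Its level was 9.999, 10.016 and 10.010 in the deletion and 10.023, 9.999 and 9.993 in wild type (replicates 4, 5 and 6 of the deletion, and 3, 4 and 6 of wild type, the order used throughout). The arrays of both genotypes overlapped within a few hundredths of a log2 unit. The difference was 0.0036 ± 0.03 (SE; limma adjusted p = 0.972), with a 95% interval from −0.07 to 0.08, or from 0.954-fold to 1.05-fold. The SD of RTG2 was at percentile 4.20 of all probe sets in the deletion and at percentile 6.40 in wild type.

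RTG3 encodes the activator that carries the main transactivating function of the pair. It stood at 8.77, 8.63 and 8.60 in the deletion and at 8.70, 8.68 and 8.61 in wild type. Deletion replicate 4 was the highest array and deletion replicate 6 the lowest, so the wild type values lay within the range of the deletion. The difference was 0.0044 ± 0.06 (SE; limma adjusted p = 0.984), with a 95% interval from −0.14 to 0.15.

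RTG1 encodes the smaller helix-loop-helix partner of Rtg3. Its values were 5.98, 6.06 and 5.58 in the deletion and 5.87, 6.02 and 5.90 in wild type. A single array, deletion replicate 6, lay below all the others, and the deletion SD of 0.26 was at percentile 98.8 of all probe sets. The difference of −0.06 ± 0.14 (SE; limma adjusted p = 0.879) had a 95% interval from −0.38 to 0.26 and became 0.09 without deletion replicate 6, also uncalled (limma adjusted p = 0.774). For RTG1 the arrays therefore leave a change of up to 1.20-fold upward or 0.767-fold downward within the interval.

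MKS1, the negative regulator, was the regulator with the largest difference. It read 8.67, 8.79 and 8.81 in the deletion against 8.69, 8.65 and 8.59 in wild type. Deletion replicates 5 and 6 lay above every wild type array, while deletion replicate 4 lay among them. The difference was 0.11 ± 0.06 (SE; 1.08-fold; limma adjusted p = 0.370) and 0.14 ± 0.06 without wild type replicate 3 (limma adjusted p = 0.109). It was positive in all 14 alternative fits and called in 0 of them.

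The target genes shared a pattern over the arrays that RTG1, RTG3 and MKS1 did not show. RTG2 came close to it within a much smaller spread. Wild type replicate 3 was its highest array, at 10.023, but deletion replicate 4 was level with wild type replicate 4, at 9.999. CIT2 encodes the peroxisomal citrate synthase of the glyoxylate cycle and is the classical reporter of the pathway. Its level was 12.14, 12.13 and 12.12 in the deletion and 12.21, 11.83 and 11.79 in wild type. The deletion arrays lay together, below wild type replicate 3 and above wild type replicates 4 and 6.

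With all arrays the CIT2 difference was 0.19 ± 0.10 (SE; 1.14-fold; limma adjusted p = 0.428), with a 95% interval from −0.06 to 0.43. Wild type replicate 3 exceeded the mean of the other wild type arrays by 0.40. Once that array was left out, CIT2 was higher in the deletion by 0.32 ± 0.02 (SE; 1.25-fold; limma adjusted p = 8.27e-06) and held rank 51 of 5498 by p-value. With any other single array left out the gene was not called, and the difference stayed between 0.11 and 0.19.

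DLD3 encodes a cytoplasmic enzyme that interconverts lactate and 2-hydroxyglutarate with pyruvate and 2-oxoglutarate. It stood at 11.71, 11.70 and 11.67 in the deletion and at 11.95, 11.57 and 11.58 in wild type. Again the deletion arrays fell between wild type replicate 3 and the other wild type arrays, here with a mean 0.26 below replicate 3. The difference was −0.0097 ± 0.10 (SE; limma adjusted p = 0.977), with a 95% interval from −0.25 to 0.23. It turned to 0.12 ± 0.02 (SE; 1.08-fold; limma adjusted p = 0.00513) without replicate 3.

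PYC1 encodes pyruvate carboxylase, which makes oxaloacetate from pyruvate. Its level was 11.43, 11.31 and 11.32 in the deletion and 11.44, 11.25 and 11.26 in wild type. Deletion replicate 4 was almost as high as wild type replicate 3, and the other deletion arrays lay just above wild type replicates 4 and 6. The difference was 0.04 ± 0.06 (SE; limma adjusted p = 0.810) with all arrays and 0.10 ± 0.04 without wild type replicate 3, which was not called either (limma adjusted p = 0.0700).

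The order seen in all 3 target genes, with every deletion array above wild type replicates 4 and 6 and below wild type replicate 3, occurred in 402 of 5498 probe sets, or 7.31%. It is not particular to the targets. In the lists of related genes described below, BMH1, IDP1 and PYC2 had the same order, and the other list genes did not. The genes described next, picked for levels like those of the targets, also had it, except THP3. For them the order follows from the choice. In PYC2 replicate 3 exceeded the mean of the other wild type arrays by 0.43. That pattern was picked after the values were seen, so it has no test. Replicate 3 exceeded the mean of the other wild type arrays by 0.37 in DLD3 and 0.19 in PYC1, as against 0.07 in MKS1, 0.06 in RTG3 and 0.03 in RTG2, and it was 0.09 lower in RTG1. By absolute size these deviations held rank 472 of 5498 for CIT2, 530 for DLD3 and 1693 for PYC1. Between replicates 4 and 6 the targets differed by 0.04, −0.01 and −0.02. Whatever set replicate 3 apart was not tested.

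**Figure D2:**
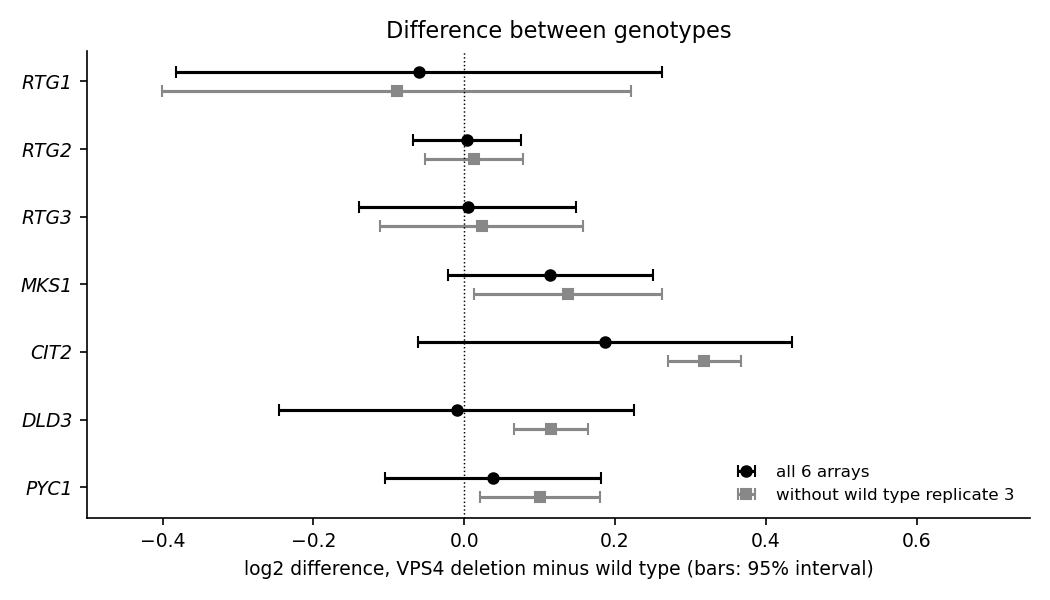
Log2 difference, VPS4 deletion minus wild type, for each retrograde gene with its unadjusted 95% interval, for all 6 arrays (circles) and without wild type replicate 3 (squares). Without that array CIT2 is at 0.32 and DLD3 at 0.12 with narrower intervals, while the 4 regulators move by 0.03 or less.

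The genes whose levels most resembled those of the targets were found by the root mean square difference of centred log2 values over the 6 arrays. Wild type replicate 3 was the highest array in all of them but THP3, where deletion replicate 4 was higher, at 8.77 against 8.75. For CIT2 these were HEM15, which encodes ferrochelatase, at 0.02, AIM6 at 0.03 and UGA1, which encodes the GABA transaminase, at 0.03. UGA1 stood at 10.06, 10.02 and 9.98 in the deletion and at 10.15, 9.70 and 9.70 in wild type, and was not called (limma adjusted p = 0.557). For DLD3 they were SFT2, a Golgi membrane protein gene, at 0.01, YHL017W at 0.02 and YOL107W at 0.02. For PYC1 they were NRG2, which encodes a transcriptional repressor, at 0.01, PMT7 at 0.02 and THP3 at 0.02. With all arrays none of these 9 genes was called (limma), their adjusted p-values running from 0.425 for HEM15 to 0.991 for YHL017W. They were chosen for levels close to those of uncalled genes, so that count follows from the choice and is no separate result. In UGA1, as in CIT2, the deletion arrays lay below wild type replicate 3 and above wild type replicates 4 and 6. Values without wild type replicate 3 are not given for these 9 genes. The rise of CIT2 in that fit is therefore not shown to be particular to CIT2.

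**Figure D3:**
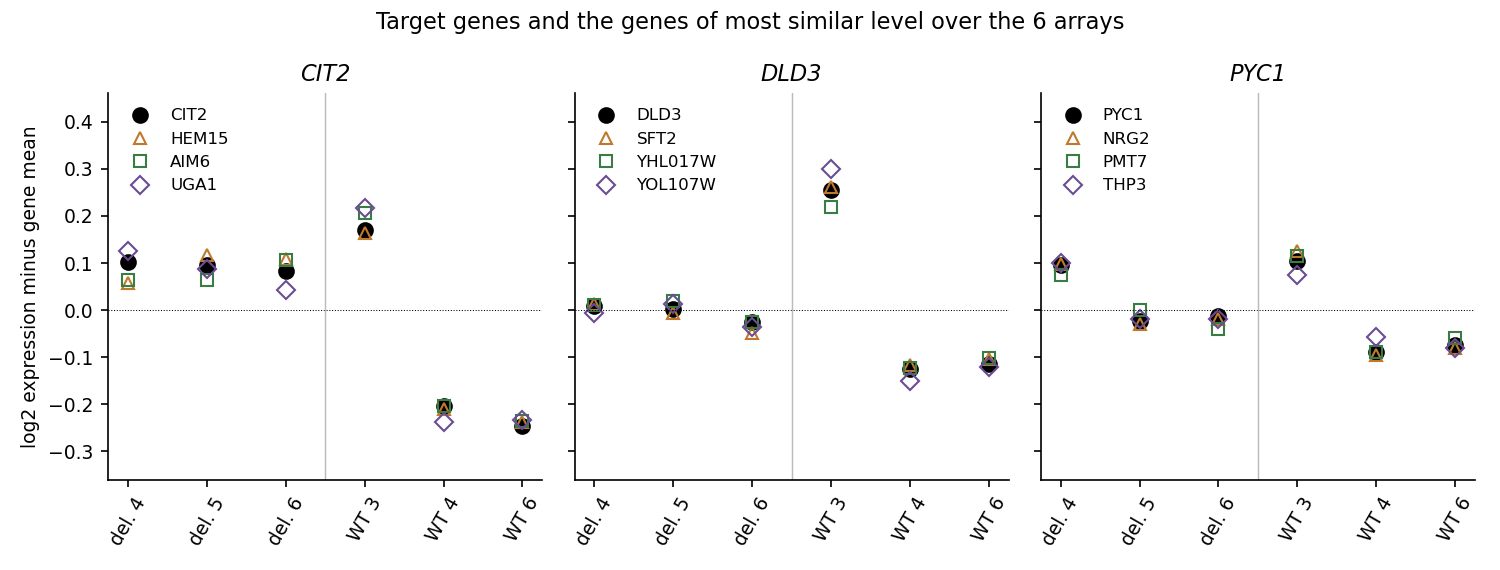
Log2 expression minus each gene's mean over the 6 arrays for CIT2, DLD3 and PYC1 and the 3 genes closest to each, deletion arrays left and wild type arrays right of the line. Wild type replicate 3 is the highest array for CIT2, DLD3 and PYC1, with the deletion arrays below it and wild type replicates 4 and 6 lowest.

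Paralogs of the targets made a direct comparison possible, since CIT1, DLD2 and PYC2 encode related enzymes. CIT1, the mitochondrial citrate synthase gene, was at 11.67, 11.65 and 11.62 in the deletion and at 11.88, 11.68 and 11.77 in wild type. All its deletion arrays lay below all its wild type arrays, but the difference of −0.13 ± 0.05 (SE) was not called (limma adjusted p = 0.230) and was −0.08 without wild type replicate 3. The response of CIT2 exceeded that of CIT1 by 0.32 log2, with no overlap of the genotypes, and by 0.40 without wild type replicate 3. The exact two-sided permutation p was 0.1, the smallest that 3 against 3 arrays can give, and 0.3 after adjustment over the 3 pairs.

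DLD2, the mitochondrial relative of DLD3, was at 11.03, 10.98 and 10.98 in the deletion and at 10.96, 10.93 and 10.97 in wild type. The responses of DLD3 and DLD2 differed by −0.05, and by 0.07 without wild type replicate 3 (exact permutation p = 1 and 0.1). Without that array 0.1 is also the smallest p the test can give, and it was not adjusted over the pairs. PYC2, the second pyruvate carboxylase gene, was at 11.48, 11.38 and 11.32 in the deletion and at 11.69, 11.26 and 11.25 in wild type. Their responses differed by 0.05 (exact permutation p = 0.9). PYC1 and PYC2 are close copies, and although both probe sets are of the kind designed to match a single transcript, signal shared between them was not tested. Of the 5 paralogs, CIT3 and DLD1 included, 0 were called (limma) and 1 had an unadjusted p under 0.05. Over all probe sets those shares were 4.27% and 17.4%. Without replicate 3 PYC2 was called higher by 0.14 and DLD1 lower by −0.12, 2 of 5 where 22.0% of all probe sets were called.

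The tricarboxylic acid cycle genes that depend on the Rtg proteins when respiration fails are CIT1, ACO1, IDH1 and IDH2. All 4 had negative differences, with a median of −0.12 (−0.10 without wild type replicate 3), and 2 of the 4 were called lower in the deletion, beside 1.46% of all probe sets. IDH2, a subunit gene of the NAD-dependent isocitrate dehydrogenase, was at 12.05, 12.05 and 12.01 in the deletion and 12.21, 12.16 and 12.16 in wild type. IDH1, the other subunit gene, was at 11.34, 11.38 and 11.35 in the deletion and 11.47, 11.47 and 11.46 in wild type.

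For both subunit genes the deletion arrays lay below every wild type array, wild type replicate 3 being close to the others in IDH1. IDH2 fell by 0.14 (limma adjusted p = 0.0246) and IDH1 fell by 0.11 (0.0471). Both were also called without wild type replicate 3 (0.00299 and 0.00828), 2 of 4 where 10.1% of all probe sets were called lower. Neither was called with any other array left out, the adjusted p reaching 0.118 and 0.189. With no trend neither was called (limma adjusted p = 0.0854 for IDH2 and 0.124 for IDH1). IDH1 was also uncalled (limma) with the robust prior (adjusted p = 0.0660), quantile normalization (0.0502) or every probe set tested (0.0966). The wild type SD of IDH1 was at percentile 1.07 of all probe sets. ACO1, the aconitase gene, differed by −0.09 ± 0.05 (SE; limma adjusted p = 0.417), and by −0.04 without wild type replicate 3.

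Of 12 other genes reported to rise in cells without mitochondrial DNA, 1 was called higher, 0 lower and 11 did not pass, beside 2.82% of all probe sets called higher. ICL2, which encodes the 2-methylisocitrate lyase of mitochondria, was at 7.73, 7.71 and 7.81 in the deletion and 7.28, 7.36 and 7.47 in wild type. It rose by 0.38 ± 0.07 (SE; 1.30-fold; limma adjusted p = 0.0323), with no overlap of the arrays. ICL2 was also called without wild type replicate 3, at 0.33, and not with any other array left out (adjusted p up to 0.146).

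The neighbouring steps of the same methylcitrate pathway did not share that call. PDH1 differed by −0.09 and CIT3 by 0.28 ± 0.16 (SE), with adjusted p-values of 0.359 and 0.455 (limma). Wild type replicate 3 differed by −0.55 from the other wild type arrays in CIT3, whose difference was 0.09 without it. The median of the 12 was −0.08, and −0.13 without that array. Peroxisomal genes of the list, PEX11, POX1, CTA1, PXA1 and CAT2, had differences from −0.33 for CAT2 to 0.26 for CTA1. The carnitine carrier gene CRC1 differed by −0.07, ATO3, a plasma membrane protein gene, by −0.11, and the drug resistance genes PDR3 and PDR5 by −0.23 and −0.13. POX1 was close to background, at 1.99 on deletion replicate 6 against a background of 1.92. CTA1, CIT3 and CRC1 were dim as well, with group means from 3.63 to 4.04. Without wild type replicate 3, CAT2, PDH1 and PDR5 were called lower, by −0.44, −0.13 and −0.19, while the uncalled PXA1, CRC1 and POX1 were at −0.13, −0.25 and −0.14, against −0.27, −0.07 and −0.05 with all arrays. With ICL2 this made 4 of 12 genes called, in a fit that called 22.0% of all probe sets.

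The proteins that act on Mks1 and bring the TORC1 signal to the pathway were measured through 8 genes. Of these, 0 were called (limma) and 0 had an unadjusted p under 0.05, against 4.27% and 17.4% of all probe sets. GRR1, whose F-box protein directs the breakdown of free Mks1, differed by −0.07 ± 0.05 (SE), and BMH1 and BMH2, whose 14-3-3 proteins bind Mks1, by 0.0076 and 0.06. LST8, a TOR complex subunit gene that dampens the pathway, differed by −0.02 ± 0.04 (SE), with a 95% interval from −0.11 to 0.07. The TORC1 genes KOG1 and TCO89 and the kinase gene TOR2 lay between −0.04 and −0.01. TOR1 was at 8.99, 8.92 and 8.86 in the deletion and 8.89, 8.74 and 8.71 in wild type, a difference of 0.14 ± 0.07 (SE; limma adjusted p = 0.330). Without wild type replicate 3, TOR1 and BMH2 were called higher, by 0.20 and 0.11. That is 2 of 8 genes, close to the 22.0% of all probe sets called in that fit (11.9% called higher).

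**Figure D4:**
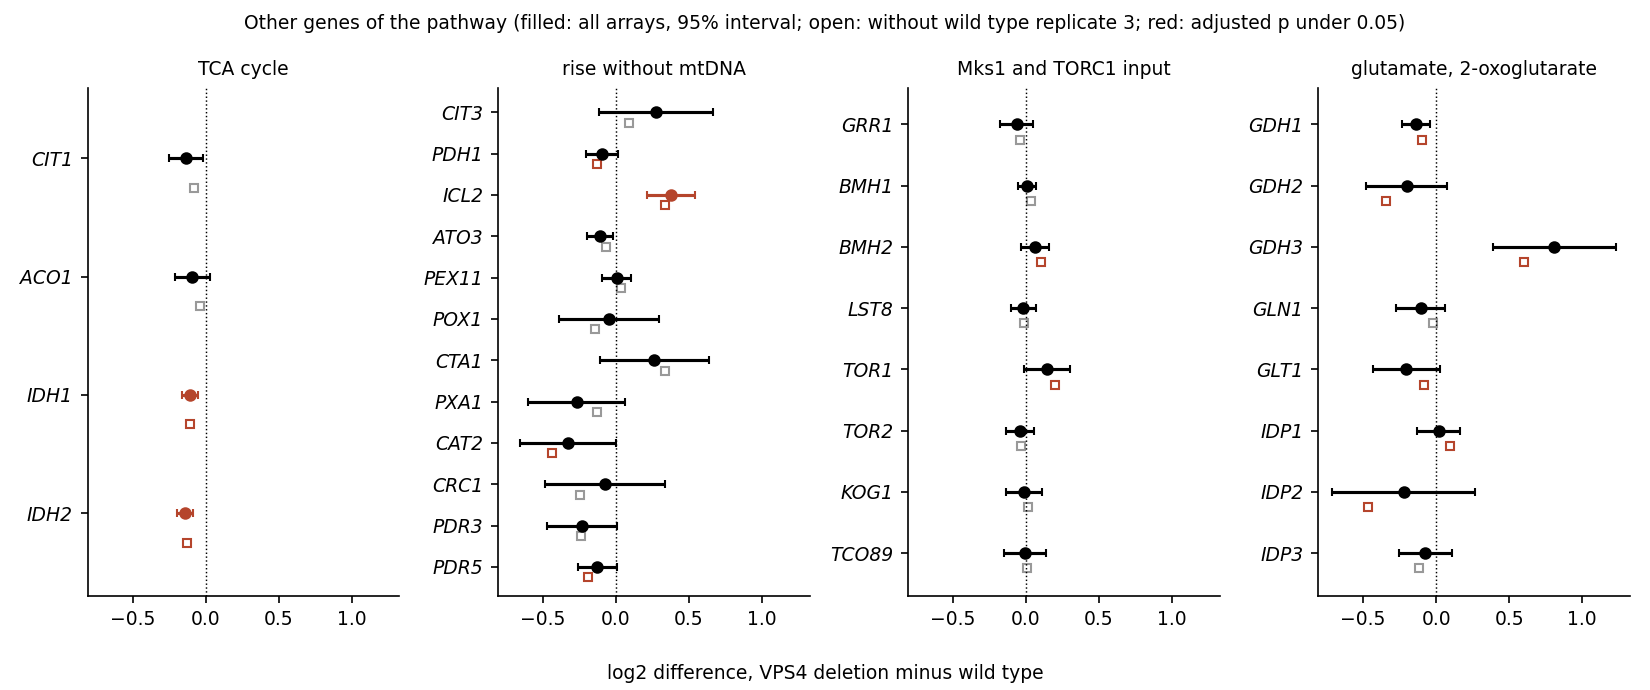
Log2 difference, VPS4 deletion minus wild type, for the other genes of the pathway in 4 lists, with unadjusted 95% intervals for all arrays (filled) and the value without wild type replicate 3 (open); red marks an adjusted p under 0.05. With all arrays IDH1 and IDH2 are red below 0 and ICL2 is red above 0, while GDH3 has the largest difference, 0.81, and is not called.

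Glutamate is both the product that the pathway serves and the signal that turns it down. Of 8 genes for glutamate and 2-oxoglutarate enzymes, 0 were called (limma) and 2 had an unadjusted p under 0.05, with a median of −0.12. Over all probe sets those shares were 4.27% and 17.4%. GDH3, the glutamate dehydrogenase gene known for use on poor carbon sources, was at 5.32, 5.40 and 5.44 in the deletion and 4.16, 4.84 and 4.72 in wild type. All deletion arrays exceeded all wild type arrays, by a mean of 0.81 ± 0.18 (SE; 1.75-fold), just outside the threshold (limma adjusted p = 0.0579). It was called at 0.60 ± 0.10 without wild type replicate 3 (limma adjusted p = 0.00194).

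GDH1, the main biosynthetic glutamate dehydrogenase gene, was at 12.69, 12.69 and 12.68 in the deletion and 12.91, 12.75 and 12.81 in wild type, a difference of −0.14 ± 0.04 (SE; limma adjusted p = 0.130). GLT1, the glutamate synthase gene, was at 11.22, 11.20 and 11.22 in the deletion and 11.66, 11.30 and 11.29 in wild type, likewise with no overlap (limma adjusted p = 0.345). In GLT1 and in GLN1, the glutamine synthetase gene, replicate 3 was 0.36 and 0.26 above the other wild type arrays. Larger deviations in this list went the other way, at −0.62 in GDH3, −0.42 in GDH2 and −0.73 in IDP2. The median deviation of the list was −0.0034. Without replicate 3, 6 of the 8 genes were called: GDH3 and IDP1 higher, by 0.60 and 0.09, and GDH1, GLT1, GDH2 and IDP2 lower, by −0.09, −0.08, −0.34 and −0.47. In that fit 22.0% of all probe sets were called, 11.9% as higher and 10.1% as lower. The list's median was then −0.09, and GLN1 differed by −0.02, against −0.11 with all arrays. IDP3 differed by −0.07 and −0.12 with and without that array and was not called. GDH2, IDP1 and IDP2 differed by −0.20, 0.02 and −0.22 with all arrays (limma adjusted p = 0.442, 0.919 and 0.661). In GDH2 and IDP2 the deletion arrays lay above wild type replicate 3 and below the other wild type arrays.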

How the data were processed

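Values were the log2 expression levels per probe set that the authors deposited, made with GCRMA according to the submitters' processing notes (version not given in the sources used here). GCRMA corrects background from probe sequence, quantile-normalizes and draws dim values together; no further normalization was applied. Symbols came from the platform annotation, updated by gene ID through a table of assembly R64. Of 10928 probe sets, 5498 (5449 genes) were annotated to Saccharomyces cerevisiae, and all of these were tested with no filter on low values. Percentile 95 of 1746 probe sets of another yeast on the same array served as background. For VPS4, dim on every deletion array, the fold is a lower bound: its wild type mean was set against whichever was higher on each deletion array, the background or the measured value.

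The genotypes were compared with limma 3.58.1 under R 4.3.3, using lmFit and eBayes with a trend of variance on mean, no covariate, two-sided tests and Benjamini-Hochberg adjustment over 5498 probe sets at a threshold of 0.05. Errors are SD or moderated SE, and intervals are unadjusted. Responses of paralogs were compared by an exact permutation test over 20 assignments of arrays, or over fewer where an array was left out. The fit was tested on simulated data. The number of arrays, 3 per genotype, limits precision.

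The genes named are VPS4, the 7 retrograde genes, all members of 5 lists of related genes and, for each target, the 3 genes of most similar level. Members and lists were chosen with earlier results of these data known. Alternatives varied the variance prior (no trend, robust), the probe sets tested (without dim ones, or with every probe set of the table), the scaling (quantile, median), the weight or presence of single arrays, the threshold, and a block for the number in the title. Both genotypes have arrays numbered 4 and 6, whose deviations from their group means correlated by 0.02 and −0.06. The wild type mean includes replicate 3, which stood apart, so these values cannot decide whether the arrays are paired. The labels do not say so either, and arrays were not paired in the main fit. Sequences and coordinates were not used here, and the planned search of promoters for the Rtg1 and Rtg3 site was not run.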

Additional observations from a re-analysis of the deposited data

How the results depend on the processing

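The count of 0 called among the 7 retrograde genes was 2 without wild type replicate 3 and 0 without any other array. It was 1 with array weights, which gave that replicate 0.143 and every other array over 1, and 2 with the replicate block. Of all 5498 probe sets, 1212 were called without that replicate, 1036 with array weights and 858 with the block. Whether the 7 genes exceeded these shares was not tested. Under every other alternative the count for the 7 genes stayed at 0. The block compares the genotypes only through the 4 arrays numbered 4 and 6, so it too leaves out wild type replicate 3; it gave CIT2 0.32 (limma adjusted p = 9.37e-05) and DLD3 0.11 (0.0303). Of 98 alternative values for these 7 genes, 83 kept sign and side of the threshold, 3 became called with the same sign and 12 changed sign. Leaving out 1 array moved RTG1 between −0.15 and 0.089, RTG2 between −0.0025 and 0.013, RTG3 between −0.049 and 0.036 and DLD3 between −0.075 and 0.12. Quantile normalization gave RTG3 −0.015, median centring gave RTG2 −0.015 and RTG3 −0.014, and array weights gave DLD3 0.10. The response of DLD3 against DLD2 ran from −0.12 to 0.066 and that of PYC1 against PYC2 from −0.035 to 0.095 with 1 array left out.

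Over all probe sets the count of 235 ranged from 22 (without deletion replicate 5) to 1212 (without wild type replicate 3); it was 1036 with array weights, 858 with the replicate block, 67 at an adjusted p under 0.01 and 422 under 0.1. Called genes of the tricarboxylic acid cycle list were 0 with no trend and at 0.01, 1 with the robust prior, quantile normalization or all probe sets tested, and 0 to 2 with 1 array left out. The list of other genes that rise without mitochondrial DNA held 4 with array weights, 3 with the block, 0 at 0.01 and 0 to 4 with 1 array left out. The glutamate list held 1 with quantile normalization or at 0.1, 4 with array weights or the block, and 0 to 6. The upstream list held 2 with array weights or the block, and 0 to 2, and the paralogs 1 with either, and 0 to 2.

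Signs that turned among the uncalled list genes, with 1 array left out, lay within these ranges: PEX11 −0.019 to 0.033, POX1 −0.14 to 0.071, CRC1 −0.25 to 0.044, BMH1 −0.010 to 0.032, KOG1 −0.044 to 0.012, TCO89 −0.043 to 0.033, IDP1 −0.024 to 0.094 and PYC2 −0.084 to 0.14. Median centring gave PEX11 −0.013 and BMH1 −0.011. Array weights gave KOG1 0.0036, TCO89 0.014 and PYC2 0.12, and the block gave KOG1 0.020 and PYC2 0.14. The causes were not tested.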
